A study of Homo sapiens with 12 samples.

Results

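The 105 genes described here are histone genes of the human genome, taken from the 60675 genes of the RNA immunoprecipitation (RIP) table. They are the symbols that begin with HIST1H to HIST4H, H1F, H2AF or H3F, without the names that end in P and digits. By their names, 75 are replication-dependent histone genes (HIST names), 16 are variant histone genes (H1F, H2AF and H3F names), and 14 carry a PS number or an antisense suffix and were kept apart. Of the 75, 55 lie on chromosome 6, 19 on chromosome 1 and 1 on chromosome 12. RefSeq lists 4 of the 75 as pseudogenes. The table of counted reads, which has 27745 genes, holds 66 of the replication-dependent genes, all 16 variant genes and 1 of the genes kept apart.

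Histones are the proteins around which DNA is wound: H2A, H2B, H3 and H4 form the core of the nucleosome, and H1 binds the linker DNA between cores. Replication-dependent histone genes are transcribed mainly in S phase, have no introns, and give mRNAs that normally end in a stem-loop instead of a poly(A) tail; the stem-loop is bound by SLBP, cut with the help of the U7 snRNP, and the mRNA is degraded quickly when DNA synthesis stops. Variant histones are deposited outside S phase as well, and their mRNAs are polyadenylated like those of most genes.

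The study used MDA-MB231, a cell line from a human breast cancer. Stable knockdown lines were made with lentiviral short hairpins against TDP43 (sh_TDP43), against SRSF3 (sh_SRSF3) or with a control hairpin (sh_control), with 2 RNA-seq libraries each; the labels name 1 hairpin construct per target. TDP43, encoded by TARDBP, and SRSF3 are RNA-binding proteins that act in splicing and RNA processing. For the RIPs, cells overexpressed Flag-tagged TDP43 or Flag-tagged SRSF3, and RNA recovered with anti-Flag antibody was sequenced beside an input, with 1 RIP library and 1 input library per protein and no mock RIP among the samples used. The labels name the same library kit, Illumina TruSeq RNA Sample Prep, for all samples. As background, that kit enriches polyadenylated RNA. Whether the RIP and input libraries went through that step is not known. Their inputs held the noncoding RNA RN7SK, which has no poly(A) tail, at 130939 and 140855 FPKM. Nothing in the labels says that the libraries of a group are separate cultures, and the p-values therefore rest on library spread that may be technical.

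The 6 knockdown libraries held 34457445 to 38326930 counted reads. The 4 RIP and input libraries held about 23100000 to 25500000 reads or read pairs, as judged from the commonest product of FPKM and length among single-exon genes. Levels in the knockdown libraries are given as CPM, reads per 1000000 counted reads after TMM scaling. TARDBP was at 34.4 and 31.3 CPM in sh_TDP43 and at 168 and 125 CPM in sh_control (log2 change -2.15 ± 0.13 SE). SRSF3 was at 64.1 and 61.7 CPM in sh_SRSF3 and at 459 and 404 CPM in sh_control (-2.78 ± 0.10). SRSF3 was also lower in sh_TDP43, at 187 and 180 CPM (-1.23 ± 0.10), and TARDBP was lower in sh_SRSF3, at 108 and 102 CPM (-0.48 ± 0.12). The mesenchymal markers of the line were present in every library (VIM at 1774 to 2398 CPM), PGR was at or near 0, and ESR1 stayed at or under 1.86 CPM, whereas the luminal keratin KRT8 reached 704 to 1037 CPM. The summed level of the 5 markers of the line was 3996 to 4245 CPM in sh_TDP43, 5421 to 5739 in sh_SRSF3 and 6536 to 6645 in sh_control. The summed level of 6 luminal markers was 1402 to 1488 CPM in sh_TDP43, 1386 to 1514 in sh_SRSF3 and 1035 to 1067 in sh_control. The 3 fibroblast markers, nearly all COL1A1, summed to 11.4 to 13.4 CPM in sh_TDP43, 24.4 to 26.4 in sh_SRSF3 and 15.6 to 17.2 in sh_control. The 3 blood cell markers summed to 1.55 to 3.04 CPM in sh_TDP43, 0.450 to 0.471 in sh_SRSF3 and 0.807 to 0.861 in sh_control, and the 3 markers of kidney packaging cells stayed at or under 0.111 CPM. The part of these differences in the histone results was not tested. In bulk RNA, fewer cells that express a gene and less RNA per cell cannot be told apart, and replication-dependent histone genes are expressed mainly by cells in S phase.

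The classes can be described by the DNA just before their transcription starts. RefSeq promoters (GRCh38.p14) matched 74 of the 91 replication-dependent and variant genes, and the 250 bases before the start were searched on both strands. The octamer ATTTGCAT was in 11 of 16 H2A and 9 of 13 H2B replication-dependent promoters, in 1 of 12 for H3, in 0 of 6 for H1 and 0 of 13 for H4, in 1 of 14 for the variants, and in 1.66% of all 27305 promoters. The AC box letters AAACACA were in all 6 replication-dependent H1 promoters, in 0 of the other replication-dependent promoters and in 4.95% of all promoters. CCAAT was in all 47 replication-dependent H1, H2A, H2B and H3 promoters and in 3 of 13 H4 promoters, against 11 of 14 variant promoters and 33% of all promoters. GGTCC was in 12 of 13 H4 promoters and 40.4% of all promoters. TATAA was in 55 of 60 replication-dependent promoters, 5 of 14 variant promoters and 19.6% of all promoters.

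The 120 bases before the start are printed for 1 replication-dependent H1, H2B and H3 gene, for a pair of H4 genes whose RIP ratios lay on opposite sides of their inputs, and for a pair of variant genes whose RIP ratios did the same. Coordinates and sequences are those of RefSeq (GRCh38.p14), read along the gene's strand. Capitals mark the motifs above on either strand, and a match is a description of the letters, not a mapped binding site.
HIST1H1C (chr6:26056471-26056590, strand -): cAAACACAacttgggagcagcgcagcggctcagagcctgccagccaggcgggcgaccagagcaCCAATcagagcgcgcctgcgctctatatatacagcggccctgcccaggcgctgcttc
HIST1H2BK (chr6:27146859-27146978, strand -): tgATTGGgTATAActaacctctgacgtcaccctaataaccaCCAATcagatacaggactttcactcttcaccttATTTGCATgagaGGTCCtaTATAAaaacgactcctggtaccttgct
HIST1H3C (chr6:26045264-26045383, strand +): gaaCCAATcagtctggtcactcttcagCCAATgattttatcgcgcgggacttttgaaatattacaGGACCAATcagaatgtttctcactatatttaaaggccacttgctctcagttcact
HIST1H4B (chr6:26027284-26027403, strand -): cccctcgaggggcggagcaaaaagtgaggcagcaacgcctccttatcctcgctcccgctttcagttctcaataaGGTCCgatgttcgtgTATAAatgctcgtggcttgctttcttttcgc
HIST1H4J (chr6:27823972-27824091, strand +): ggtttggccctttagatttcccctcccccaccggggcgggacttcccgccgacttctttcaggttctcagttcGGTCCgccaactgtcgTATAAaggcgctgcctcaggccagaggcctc
H2AFX (chr11:119095466-119095585, strand -): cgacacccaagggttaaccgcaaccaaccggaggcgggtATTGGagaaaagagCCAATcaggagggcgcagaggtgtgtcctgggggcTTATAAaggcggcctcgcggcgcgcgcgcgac
H2AFZ (chr4:99950276-99950395, strand -): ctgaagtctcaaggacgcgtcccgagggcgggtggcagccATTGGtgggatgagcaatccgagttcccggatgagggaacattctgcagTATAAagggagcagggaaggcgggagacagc
HIST1H4B and HIST1H4J had GGTCC at 46 and 47 bases before the start and TATAA at 31 bases before it. HIST1H2BK had the octamer at 46 bases before the start. H2AFX carried CCAAT and TATAA in this window, as did H2AFZ.

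In sh_TDP43 against sh_control, replication-dependent histone genes were called higher in 12 cases and lower in 0, and variant genes were called lower in 6 cases and higher in 0. Of all 15026 genes tested, 44.8% were called at an adjusted p under 0.05, 20.7% higher and 24.1% lower (edgeR quasi-likelihood test, Benjamini-Hochberg). The tested members were 27 of the 66 counted replication-dependent genes and 10 of the 16 variant genes, since the rest had too few reads: 20 replication-dependent and 3 variant genes had 0 reads in all libraries. The median log2 change was 0.55 over the replication-dependent genes that passed the filter and -0.38 over the variant genes, against -0.00 over all genes tested. The replication-dependent median moved with single libraries and with the genes that passed: it was -0.19 without sh_TDP43 replicate 1, 0.04 without sh_TDP43 replicate 2 and -0.00 without sh_control replicate 2, with 31 genes passing each time, and 0.27 and 0.18 without sh_SRSF3 replicate 1 or 2, with 29 passing. Without the filter on low counts it was 0.18 over 46 genes. Among all called genes, 46.2% were higher; with upper-quartile scaling that share was 57.1%, while the same counts of replication-dependent genes, 12 higher and 0 lower, were obtained.

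The H2B genes made up 7 of the 12. HIST1H2BK, a replication-dependent H2B gene of the chromosome 6 cluster (chr6:27114197-27114577, GRCh37), was at 24.4 and 35.4 CPM in sh_TDP43 and at 10.8 and 14.5 CPM in sh_control. The groups did not overlap, as was the case for 73.2% of all genes tested, and the log2 change was 1.24 ± 0.18 SE (adjusted p = 6.86e-05). HIST1H2BD was at 12.5 and 16.8 CPM in sh_TDP43, against 3.77 and 4.93 CPM in sh_control, again with no overlap (1.75 ± 0.21, adjusted p = 1.63e-05). HIST1H2BJ had the largest change of the called members, with 4.88 and 8.26 CPM in sh_TDP43 and 0.834 and 1.3 CPM in sh_control (2.61 ± 0.33, adjusted p = 2.85e-05). HIST1H2BE rose by 2.52 ± 0.43, HIST1H2BC by 1.98 ± 0.36, HIST2H2BE by 1.07 ± 0.29 and HIST1H2BN by 1.02 ± 0.34 on the log2 scale. HIST1H2BN overlaps HIST1H2AK and HIST1H2AL in the annotation. Both had 0 counted reads in every library, and reads from the overlap may be missing from the HIST1H2BN count. Without sh_TDP43 replicate 2 the calls of HIST2H2BE and HIST1H2BN were lost (adjusted p = 0.159 and 0.296), as they were without sh_control replicate 1 (0.0668 and 0.12).

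The other genes called higher in sh_TDP43 encode H1, H2A and H4. HIST1H2AC, an H2A gene, was at 15.2 and 20.6 CPM in sh_TDP43 and at 5.60 and 6.99 CPM in sh_control (1.51 ± 0.17, adjusted p = 9.98e-06). HIST1H4I, an H4 gene, was at 13.0 and 17.8 CPM in sh_TDP43 and at 5.19 and 5.69 CPM in sh_control (1.5 ± 0.18, adjusted p = 1.28e-05). In both genes the sh_TDP43 libraries were above the sh_control libraries, and 73.2% of all genes tested had groups that did not overlap. HIST1H4H rose by 1.22 ± 0.31 and HIST4H4 by 1.36 ± 0.45. HIST1H1C, the gene of linker histone H1.2, was at 17.9 and 21.1 CPM in sh_TDP43 and at 12.7 and 13.9 CPM in sh_control, a smaller rise of 0.55 ± 0.13. The calls of HIST1H1C and HIST4H4 were lost without sh_TDP43 replicate 2 (adjusted p = 0.0644 and 0.116), and that of HIST4H4 also without sh_TDP43 replicate 1 (0.0683) and without sh_control replicate 2 (0.161).

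The rise was not seen in every tested gene of the class. The 4 tested H3 genes all had log2 changes below 0 in sh_TDP43, between -1.11 and -0.28. So did 5 of the 8 tested H2A genes, and none of these passed the test. Some of them, HIST1H2AI and HIST1H3J among them, had few reads and passed the filter only with sh_SRSF3 in the fit. HIST1H2AI had 2 reads in each sh_TDP43 library and 8 and 6 in sh_control. With only sh_TDP43 and sh_control in the fit, 21 genes of the class passed, with a median of 1.03. HIST1H3C was at 0.434 and 0.455 CPM in sh_TDP43 and at 0.511 and 0.913 CPM in sh_control (-0.68 ± 0.50). HIST1H4C, an H4 gene, was at 0.597 and 0.160 CPM in sh_TDP43 and at 0.484 and 0.183 CPM in sh_control, and these libraries overlapped (0.18 ± 0.67). HIST3H2A had 20 and 0 reads in sh_TDP43 and 4 reads in each sh_control library, so its value was set by 1 library (1.32 ± 1.12). By the annotation of the count table, of the 10 replication-dependent genes annotated with several exon blocks, 8 were called higher, with a median of 1.44. Of the 17 with a single exon block, 4 were called higher, with a median of -0.28. Those 4 of 17 are near the 20.7% called higher of all genes tested. Some of the 17, HIST1H2AI among them, passed the filter only with sh_SRSF3 in the fit, as did HIST1H3J of the 10. The shares and medians of both groups, here and in sh_SRSF3, therefore depend partly on the filter. In sh_SRSF3 against sh_control, 5 of the 10 and 9 of the 17 were called higher, with medians of 1.13 and 1.22. Of all genes tested, 32.5% were called higher there. The difference between these groups of genes was not tested.

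Variant histone genes lay below sh_control in sh_TDP43 for all 10 tested members, with or without a call. H1F0, the gene of linker histone H1.0, which accumulates in resting and differentiated cells, was at 192 and 187 CPM in sh_TDP43 and at 495 and 447 CPM in sh_control (-1.32 ± 0.11, adjusted p = 4.1e-07). H2AFX, the gene of H2A.X that is phosphorylated at DNA breaks, was at 117 and 91.0 CPM in sh_TDP43 and at 258 and 200 CPM in sh_control (-1.14 ± 0.14, adjusted p = 2.6e-05). H1FX, another linker histone gene, was at 75.5 and 63.0 CPM in sh_TDP43 and at 140 and 116 CPM in sh_control (-0.88 ± 0.12). None of these 3 genes had overlapping groups, as was the case for 73.2% of all genes tested. H3F3A, which encodes H3.3, fell by 0.45 on the log2 scale, H2AFY, which encodes macroH2A1, by 0.33, and H2AFZ, which encodes H2A.Z, by 0.27. The H2AFZ call was lost in 5 of the 6 fits that left out 1 library and with upper-quartile scaling (adjusted p = 0.136), and the H2AFY call without sh_TDP43 replicate 2 (0.0832). H3F3B, the other H3.3 gene and the variant member with most reads, was at 581 and 575 CPM in sh_TDP43 and at 691 and 592 CPM in sh_control, and did not pass the test (-0.15 ± 0.10).

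In sh_SRSF3 against sh_control, which shares its control libraries with the comparison above, replication-dependent genes were called higher in 14 cases and lower in 1, and variant genes were called lower in 4 cases and higher in 0. Of all genes tested, 66.9% were called, 32.5% higher and 34.4% lower. The median log2 change was 1.18 over the replication-dependent genes that passed the filter, -0.22 over the variant genes and -0.03 over all genes tested. Some replication-dependent genes passed only with sh_SRSF3 in the fit: 21 passed when it was left out, against 27. For such genes, HIST1H2AI among them, a higher value in sh_SRSF3 was partly set by the filter. The count of variant genes called lower was 7 without sh_control replicate 2 and 8 with upper-quartile scaling, which moved the median of all genes to -0.19.

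H1 genes and genes of all core types were among those that rose. HIST1H1C was at 28.1 and 30.2 CPM in sh_SRSF3 and at 12.7 and 13.9 CPM in sh_control (1.13 ± 0.13, adjusted p = 3.69e-06). HIST1H2AC was at 23.3 and 23.6 CPM in sh_SRSF3, against 5.60 and 6.99 CPM in sh_control (1.90 ± 0.17, adjusted p = 3.01e-07). HIST1H2BK was at 34.5 and 34.3 CPM in sh_SRSF3, against 10.8 and 14.5 CPM in sh_control (1.44 ± 0.18, adjusted p = 5.92e-06). In each of the 3 genes, both sh_SRSF3 libraries were above both sh_control libraries; 83.2% of all genes tested had groups that did not overlap. HIST1H4C was at 2.04 and 1.75 CPM in sh_SRSF3 and at 0.484 and 0.183 CPM in sh_control, the largest rise of the class (2.5 ± 0.59, adjusted p = 0.00194). HIST1H4I rose by 1.67 ± 0.18, HIST1H2BJ by 1.62 ± 0.34, HIST1H2BC by 1.34 ± 0.37 and HIST1H1E, the gene of linker histone H1.4, by 1.24 ± 0.33. HIST4H4 rose by 1.27 ± 0.46 and HIST1H4H by 1.18 ± 0.31, and both calls were lost without sh_SRSF3 replicate 2 (adjusted p = 0.189 and 0.0737), that of HIST4H4 also without sh_control replicate 2 (0.165). Among H3 genes, HIST1H3H was at 1.47 and 1.55 CPM in sh_SRSF3 and at 0.538 and 0.313 CPM in sh_control (1.82 ± 0.48), and HIST1H3C was at 1.95 and 1.39 CPM against 0.511 and 0.913 CPM in sh_control (1.22 ± 0.45). The HIST1H3C call was lost without sh_SRSF3 replicate 1 and without sh_control replicate 1 (adjusted p = 0.176 and 0.183). The single gene that fell was HIST2H2BE, an H2B gene of the chromosome 1 cluster, with 1.17 and 0.886 CPM in sh_SRSF3 and 2.10 and 2.87 CPM in sh_control (-1.27 ± 0.33, adjusted p = 0.00374).

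The linker histone variants had the largest falls in sh_SRSF3. H1F0 was at 70.9 and 58.9 CPM in sh_SRSF3 and at 495 and 447 CPM in sh_control (-2.86 ± 0.11, adjusted p = 2.5e-10). H1FX was at 33.5 and 28.5 CPM in sh_SRSF3, against 140 and 116 CPM in sh_control (-2.04 ± 0.13, adjusted p = 8.27e-09). H2AFY was at 195 and 188 CPM in sh_SRSF3 and at 389 and 359 CPM in sh_control (-0.97 ± 0.09). In all 3 genes the sh_SRSF3 libraries lay below the sh_control libraries, and 83.2% of all genes tested had groups that did not overlap. H2AFJ, the gene of H2A.J, fell by 0.55 on the log2 scale. H2AFX was at 218 and 175 CPM in sh_SRSF3 and at 258 and 200 CPM in sh_control, and the groups overlapped (-0.22 ± 0.14, adjusted p = 0.181). H2AFZ, at 465 and 453 CPM in sh_SRSF3 and 501 and 441 CPM in sh_control, also overlapped (-0.04 ± 0.10).

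**Figure D1:**
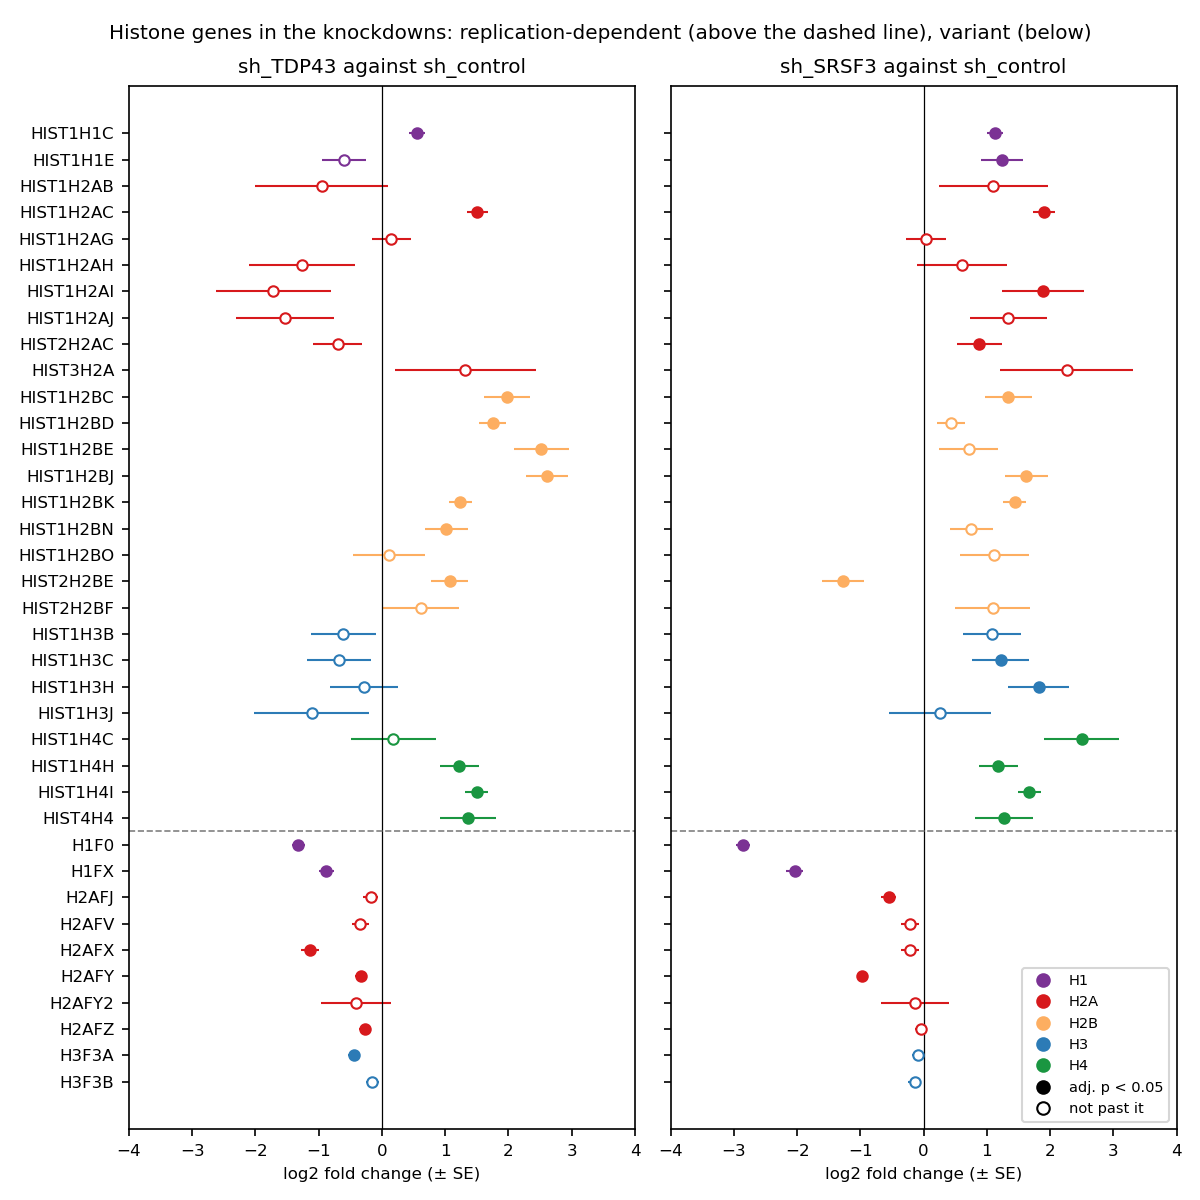
Log2 fold change (± SE) of the 37 tested histone genes in sh_TDP43 and sh_SRSF3, each against sh_control, from edgeR fits of 2 libraries a group, with replication-dependent genes above the dashed line, variant genes below it, colours for the core type, and filled points for an adjusted p under 0.05. H2B and H4 genes lie to the right of 0 in sh_TDP43 while its 4 H3 genes lie to the left, and H1F0 has the lowest value of both panels, -2.86 in sh_SRSF3.

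Set against each other directly, sh_SRSF3 and sh_TDP43 differed in which core types were high. Of the 27 replication-dependent genes that passed the filter, 10 were called higher and 4 lower in sh_SRSF3 against sh_TDP43. Of all genes tested, 65.5% were called there, 32.0% higher and 33.5% lower. The 10 of 27 called higher lie near that 32.0%. Among all called genes 48.8% were higher, and with upper-quartile scaling 34.4%, where the median of all genes was -0.29, against -0.04 with TMM. The 4 that were lower were all H2B genes. HIST2H2BE was at 1.17 and 0.886 CPM in sh_SRSF3 and at 4.10 and 6.34 CPM in sh_TDP43 (-2.34 ± 0.32, adjusted p = 2.05e-05), without overlap, as in 83.8% of all genes tested. HIST1H2BE differed by -1.81 ± 0.41, HIST1H2BD by -1.32 ± 0.21 and HIST1H2BJ by -1.0 ± 0.30, and the HIST1H2BJ call was lost without sh_TDP43 replicate 2 (adjusted p = 0.193) and without sh_SRSF3 replicate 1 (0.0788). The genes that were higher encode H1, H2A, H3 and H4. HIST1H2AI had 29 and 19 reads in sh_SRSF3 and 2 reads in each sh_TDP43 library (3.61 ± 0.79, adjusted p = 0.00109). With 8 and 6 reads in sh_control, HIST1H2AI passed the filter only through sh_SRSF3, where it is high. HIST1H2AJ, also called higher, had 26 and 30 reads in sh_SRSF3, 6 and 2 in sh_TDP43 and 8 and 16 in sh_control. It too passed only through sh_SRSF3. The calls of both genes are therefore partly set by the filter. HIST1H4C was higher by 2.31 ± 0.58, HIST1H3H by 2.10 ± 0.49, HIST1H3C by 1.90 ± 0.47, HIST1H1E by 1.84 ± 0.34 and HIST1H1C by 0.58 ± 0.13. HIST1H2BK and HIST1H4I did not pass the test (0.20 ± 0.17 and 0.17 ± 0.16), and their direction turned with upper-quartile scaling. Of the variants, 3 were called higher and 4 lower, and 1 was called higher with upper-quartile scaling or without sh_TDP43 replicate 2. H1F0 and H1FX were lower in sh_SRSF3 than in sh_TDP43 by log2 changes of -1.54 ± 0.11 and -1.16 ± 0.12, and H2AFX was higher by 0.92 ± 0.14.

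**Figure D2:**
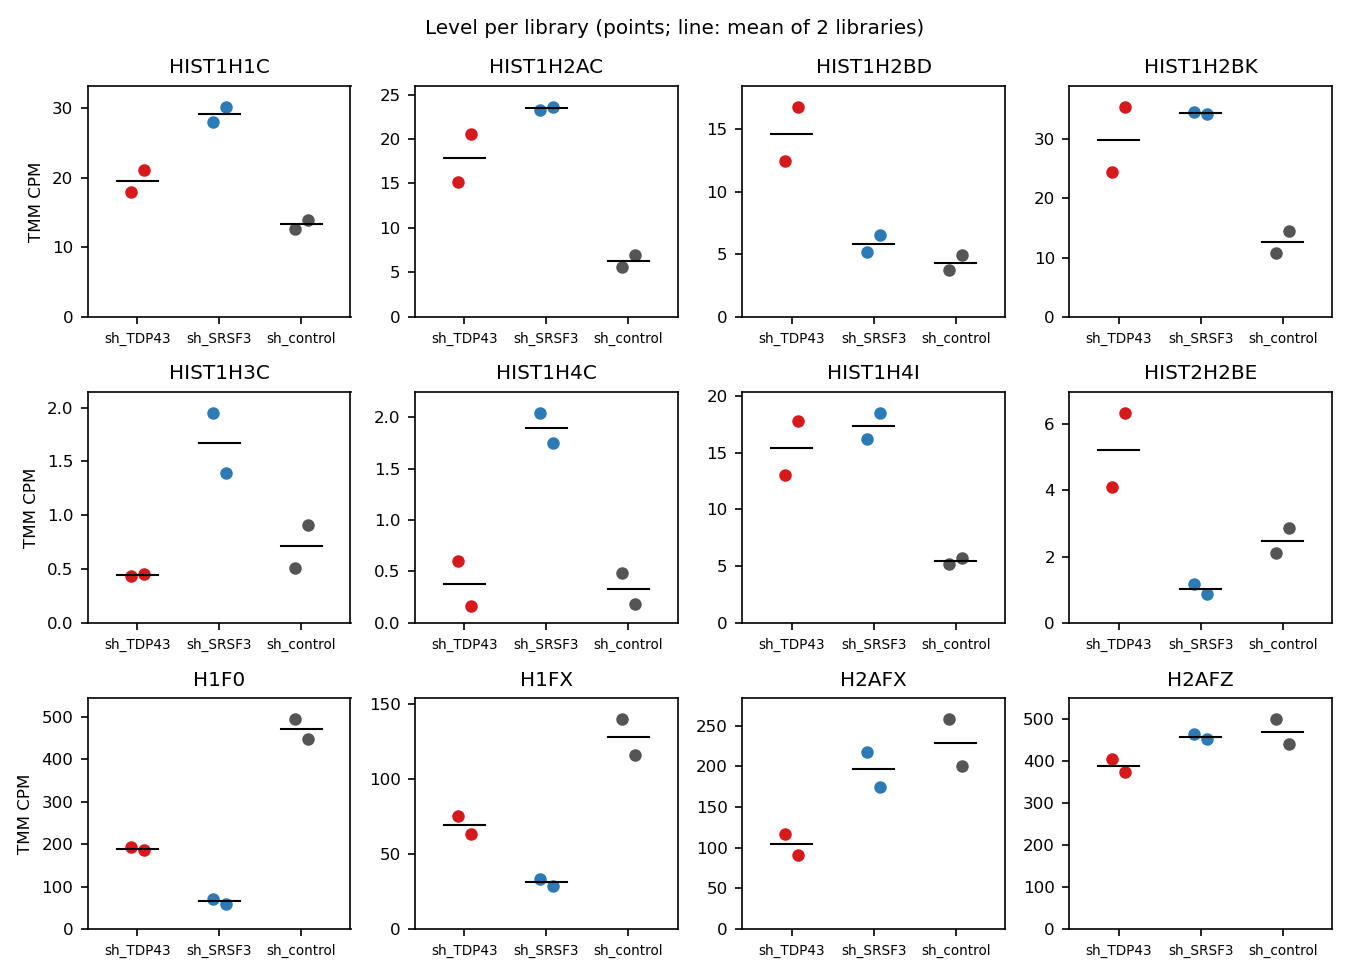
Level of 12 histone genes in CPM in each of the 2 libraries of sh_TDP43, sh_SRSF3 and sh_control (points), with the mean as a line. HIST1H2BD and HIST2H2BE are highest in sh_TDP43, HIST1H3C and HIST1H4C in sh_SRSF3, and H1F0 and H1FX in sh_control.

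As a share of the library, replication-dependent histone reads were few. They summed to 111 and 148 CPM in sh_TDP43, 141 and 146 CPM in sh_SRSF3 and 55.3 and 64.0 CPM in sh_control. Variant histone genes summed to 2055 and 1901 CPM in sh_TDP43, 1989 and 1836 CPM in sh_SRSF3 and 2970 and 2553 CPM in sh_control. Per length, the summed variant level was 3.89 and 2.64 times the summed replication-dependent level in sh_TDP43, 2.78 and 2.52 times in sh_SRSF3 and 11.7 and 8.37 times in sh_control. These ratios did not overlap between either knockdown and sh_control. Of all genes tested, 73.2% had groups that did not overlap in sh_TDP43 against sh_control, and 83.2% in sh_SRSF3 against sh_control.

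The RIP inputs, from the same cell line, had a different balance. Replication-dependent genes summed to 21465 FPKM in the Flag-TDP43 input and 27910 FPKM in the Flag-SRSF3 input, and variant genes to 1095 and 1194 FPKM. In sh_control, replication-dependent genes summed to 80.5 and 95.5 RPKM and variant genes to 938 and 799 RPKM. These tables were processed separately, so the levels are set side by side without a test. For single genes, the sh_control RPKM divided by the mean input FPKM was 0.294 to 4.73 for the 6 variant genes called in sh_TDP43 (median 0.830). It lay between 0.000668 and 6.38 for the 12 replication-dependent genes called higher in sh_TDP43 (median 0.00519). The 6.38 was HIST1H4I, with a mean input of only 0.658 FPKM, and the next highest was 0.0519, for HIST1H2BK. For the 14 that were not called and had input FPKM above 0, it lay between 0.000733 and 0.00328 (median 0.00160). The abundant noncoding RNA RN7SK, which has no poly(A) tail, was at 130939 and 140855 FPKM in the inputs. Values of genes with near-identical copies are uncertain, since the counting can split or drop reads that fit several copies. HIST2H2AA3, HIST2H2AA4 and HIST2H3A, which have such copies, had 0 counted reads in all knockdown libraries, whereas their inputs held 292 to 1411 FPKM.

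Genes that make, process or degrade histone mRNA are read here against the all-gene shares, 44.8% called in sh_TDP43 (20.7% higher, 24.1% lower) and 66.9% in sh_SRSF3 (32.5% higher, 34.4% lower). With lists of 9 to 14 genes, several of the counts below are near those shares, and no list was tested. Of 14 genes of histone mRNA 3' end formation, 3 were higher and 5 lower in sh_TDP43 (median -0.10), and 8 were higher and 4 lower in sh_SRSF3 (median 0.29). SLBP, the stem-loop binding protein, rose by 1.63 ± 0.10 in sh_SRSF3 and was lower in sh_TDP43 (-0.47 ± 0.09). ZNF473, a zinc finger protein of the U7 snRNP pathway, rose by 1.97 ± 0.10 in sh_SRSF3, and CPSF2, a subunit of the cleavage complex, fell by 2.04 there. NCBP1, of the nuclear cap-binding complex, was lower in both (-0.65 ± 0.10 in sh_TDP43 and -1.53 ± 0.11 in sh_SRSF3). CSTF2T was lower (-1.02 ± 0.10) and SYMPK, the scaffold of the cleavage complex, higher (0.56 ± 0.10) in sh_TDP43. Of 9 genes of histone gene transcription, 2 were higher and 5 lower in sh_TDP43 (median -0.33), and 2 higher and 3 lower in sh_SRSF3 (median 0.16). HINFP, the H4 promoter factor, rose by 1.49 ± 0.10 in sh_SRSF3, where CCNA2, the S and G2 phase cyclin A2, fell by 2.52. CCNE2, a G1/S cyclin, fell by 1.14 in sh_TDP43, where COIL, the coilin gene of Cajal bodies, rose by 0.91 ± 0.12. Of 10 histone mRNA decay genes, 2 were higher and 3 lower in sh_TDP43 (median 0.00), and 7 higher and 2 lower in sh_SRSF3 (median 0.69), among them DIS3, an exosome nuclease (1.44 ± 0.09).

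Of 20 replication genes of S phase, 0 were higher and 19 lower in sh_TDP43 (median -0.73), against 20.7% higher and 24.1% lower of all genes. They included GINS2 of the replicative helicase (-3.93 ± 0.20), RRM2, a subunit of ribonucleotide reductase (-1.78 ± 0.16), and CDC6 of replication licensing (-1.35 ± 0.11). In sh_SRSF3, 8 were higher and 7 lower (median 0.04), near the 66.9% called of all genes, with PCNA, the polymerase clamp, at 1.09 ± 0.11 and GINS2 at -1.35 ± 0.17. Set directly against sh_TDP43, 17 of the 20 were higher and 0 lower in sh_SRSF3 (median 0.93), against 32.0% higher and 33.5% lower of all genes. The part of these differences in the histone results was not tested. Of 21 histone chaperones and exchange factors, 0 were higher and 11 lower in sh_TDP43 (median -0.30), where 24.1% of all genes were lower, with ANP32E, which removes H2A.Z, at -2.58 ± 0.15, CHAF1A, of the chaperone that loads H3 and H4 at replication forks, at -1.08 ± 0.12, and NASP, an H3 and H4 chaperone, at -0.95 ± 0.09. In sh_SRSF3, 10 were higher and 6 lower (median 0.16), near the 66.9% called of all genes, with HJURP, which loads the centromeric H3 variant, at -1.32 ± 0.11 and SUPT16H, of the FACT complex, at 1.00 ± 0.10. Both knockdowns share the sh_control libraries in these counts too.

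In the RIPs, replication-dependent histone mRNAs lay below their input with Flag-TDP43 and above it with Flag-SRSF3. With 1 library a group there is no test, and a gene is counted when the ratio of (FPKM + 1) in RIP and input was past 2-fold, among genes with at least 1 FPKM in either library. With Flag-TDP43, 1 replication-dependent gene was higher and 33 were lower of the 46 that passed the filter, with a median log2 ratio of -1.90. Over all 13786 genes passing, 25% were past 2-fold, 11.4% were higher and 13.5% lower, with a median of -0.10. With Flag-SRSF3, 31 were higher and 4 lower of 50, with a median log2 ratio of 1.46. Over all 13869 genes passing, 15.8% were past 2-fold, 8.59% were higher and 7.24% lower, with a median of 0.03. Genes that passed the filter in both RIPs numbered 46 in this class, and 23 of them were past 2-fold lower with Flag-TDP43 and past 2-fold higher with Flag-SRSF3, against 3.17% of all 13069 genes. The difference between the RIPs was not tested.

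The sums show the size of this. Replication-dependent genes summed to 8458 FPKM in the Flag-TDP43 RIP and 21465 FPKM in its input, and to 82058 FPKM in the Flag-SRSF3 RIP and 27910 FPKM in its input. They made up 15.0% of the summed FPKM of the Flag-SRSF3 RIP and 3.11% of that of its input, and 2.03% of the Flag-TDP43 RIP and 2.21% of its input. Of the 100 genes with the highest FPKM, 25 in the Flag-SRSF3 RIP and 21 in its input were replication-dependent histone genes, against 5 in the Flag-TDP43 RIP and 16 in its input. RN7SK was at 3672 FPKM in the Flag-TDP43 RIP and 36128 FPKM in the Flag-SRSF3 RIP, below both inputs, and since FPKM values are shares of a library, its part in these sums was not tested.

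**Figure D3:**
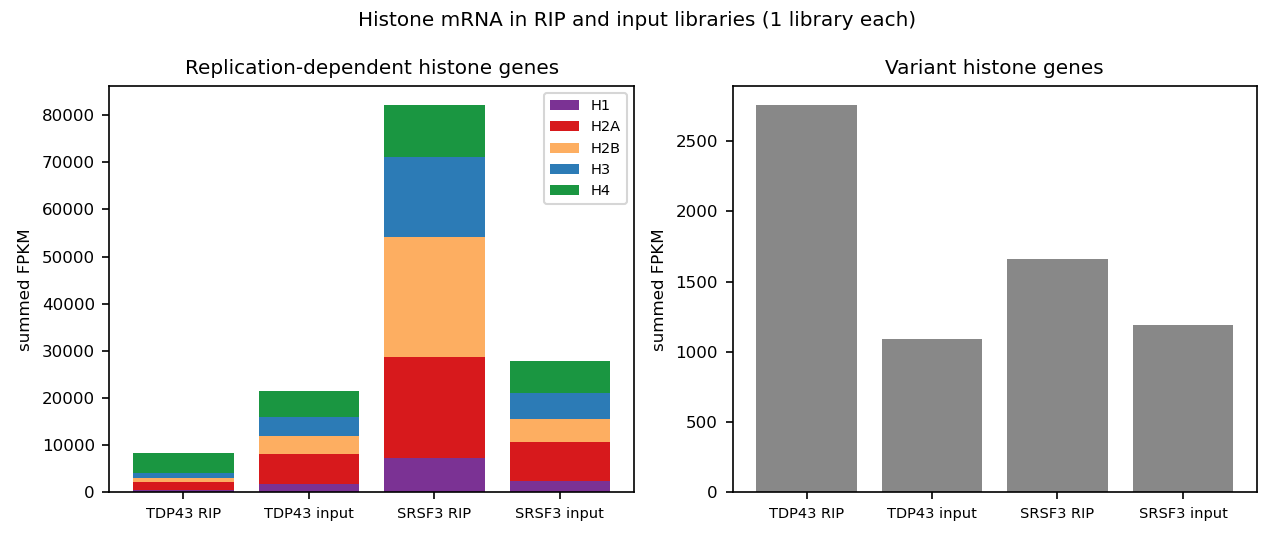
Summed FPKM of replication-dependent histone genes, stacked by core type (left), and of variant histone genes (right), in the Flag-TDP43 RIP and its input and the Flag-SRSF3 RIP and its input, with 1 library each. The Flag-SRSF3 RIP has the tallest bar on the left, 82058 FPKM against 27910 FPKM in its input, and the Flag-TDP43 RIP has the tallest bar on the right, 2755 FPKM against 1095 FPKM in its input.

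H2B genes had the highest median ratio of the histone types with Flag-SRSF3. Of the 17 replication-dependent H2B genes that passed the filter, 16 were past 2-fold higher, against 8.59% of all genes. Their median log2 ratio was 2.63. All H2B genes summed to 25427 FPKM in the RIP and 4846 FPKM in the input. Among the 16, RefSeq lists HIST2H2BA, HIST2H2BB and HIST2H2BC as transcribed pseudogenes. In a second deposited table these had ratios of -1.13, 3.05 and 0.33, and HIST2H2BD had -0.17. Most of the other H2B genes stayed past 2-fold higher there. HIST1H2BK was at 4894 FPKM in the Flag-SRSF3 RIP and 716 FPKM in its input (log2 ratio 2.77), and at 134 FPKM in the Flag-TDP43 RIP and 563 FPKM in its input (-2.07). HIST1H2BD was at 5204 FPKM in the Flag-SRSF3 RIP and 765 FPKM in its input (2.76), and at 168 FPKM in the Flag-TDP43 RIP and 555 FPKM in its input (-1.71). HIST1H2BO, with the lowest ratio of the class with Flag-TDP43, was at 41.1 FPKM in that RIP and 503 FPKM in its input (-3.58), and at 4247 FPKM in the Flag-SRSF3 RIP and 654 FPKM in its input (2.70). All 3 lay on opposite sides of their inputs in the RIPs. HIST2H2BE differed: it was at 98.9 FPKM in the Flag-TDP43 RIP and 108 FPKM in its input (-0.13), but at 1744 FPKM in the Flag-SRSF3 RIP and 134 FPKM in its input (3.69, and 1.87 in a second deposited table).

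H1, H2A and H3 genes mostly lay on the same sides as H2B. HIST1H1C was at 314 FPKM in the Flag-TDP43 RIP and 1120 FPKM in its input (-1.83), and at 3172 FPKM in the Flag-SRSF3 RIP and 1487 FPKM in its input (1.09). All 8 replication-dependent H3 genes that passed were past 2-fold lower with Flag-TDP43, with a median of -2.43, while 3 of 8 were past 2-fold higher with Flag-SRSF3. HIST1H3B was at 127 FPKM in the Flag-TDP43 RIP and 1203 FPKM in its input (-3.24), and at 4522 FPKM in the Flag-SRSF3 RIP and 1623 FPKM in its input (1.48). Of 12 H2A genes, 9 were past 2-fold lower with Flag-TDP43 and 7 past 2-fold higher with Flag-SRSF3. HIST1H2AJ was at 47.6 FPKM in the Flag-TDP43 RIP and 523 FPKM in its input (-3.43), and at 1758 FPKM in the Flag-SRSF3 RIP and 637 FPKM in its input (1.46).

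H4 genes, which encode the same protein from many copies, did not lie on 1 side. With Flag-TDP43, 1 was past 2-fold higher and 4 lower of the 9 that passed, and with Flag-SRSF3, 3 were higher and 2 lower of 10. The median log2 ratio over the H4 genes that passed was -0.07 with Flag-TDP43 and -0.24 with Flag-SRSF3. HIST1H4B was at 1353 FPKM in the Flag-TDP43 RIP and 567 FPKM in its input (1.25), the single replication-dependent gene past 2-fold higher, and at 601 FPKM in the Flag-SRSF3 RIP and 715 FPKM in its input (-0.25). HIST1H4C was at 622 FPKM in the Flag-TDP43 RIP and 368 FPKM in its input (0.76), and at 309 FPKM in the Flag-SRSF3 RIP and 467 FPKM in its input (-0.60). HIST1H4H and HIST1H4A were also above input with Flag-TDP43 (0.80 and 0.74) and below it with Flag-SRSF3 (-0.49 and -1.24). HIST1H4J and HIST1H4K did the opposite: HIST1H4J was at 221 FPKM in the Flag-TDP43 RIP and 1206 FPKM in its input (-2.45), and at 4061 FPKM in the Flag-SRSF3 RIP and 1490 FPKM in its input (1.45). HIST1H4K had -2.48 with Flag-TDP43 and 1.44 with Flag-SRSF3, where the second table gives 0.45. HIST2H4A was past 2-fold lower in both RIPs (-1.86 with Flag-TDP43 and -3.03 with Flag-SRSF3), and HIST2H4B had -1.29 and -0.24; the second table gives -0.79 with Flag-TDP43 for HIST2H4A and 0.64 with Flag-SRSF3 for HIST2H4B. HIST1H4A, HIST1H4B, HIST1H4J, HIST1H4K and HIST2H4B are named after their values were seen. As the printed promoters of HIST1H4B and HIST1H4J show, both carry GGTCC and TATAA at nearly the same distance from the start.

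Of the 10 variant histone mRNAs that passed the filter, 7 lay above input with Flag-TDP43 and 5 with Flag-SRSF3. Of all genes passing, 6235 of 13786 lay above input with Flag-TDP43 and 7200 of 13869 with Flag-SRSF3. With Flag-TDP43, 2 variants were past 2-fold higher and 2 lower (median log2 ratio 0.72), against 11.4% and 13.5% of all genes. With Flag-SRSF3, 2 were higher and 2 lower (median 0.16), against 8.59% and 7.24% of all genes. Without the FPKM filter these medians were 0.10 and -0.04, and in the second table the median with Flag-SRSF3 was 0.73. H2AFZ was at 1794 FPKM in the Flag-TDP43 RIP and 306 FPKM in its input (2.55), and at 182 FPKM in the Flag-SRSF3 RIP and 378 FPKM in its input (-1.05). It was thus past 2-fold in the reverse sense to most replication-dependent genes, as were 1.65% of all genes. In the second table its ratio with Flag-SRSF3 was -0.52, within 2-fold, which ends that call. H2AFX was at 32.6 FPKM in the Flag-TDP43 RIP and 117 FPKM in its input (-1.81), and at 643 FPKM in the Flag-SRSF3 RIP and 149 FPKM in its input (2.10). H1FX was at 20.9 FPKM in the Flag-TDP43 RIP and 78.5 FPKM in its input (-1.86), and at 260 FPKM in the Flag-SRSF3 RIP and 81.8 FPKM in its input (1.66). H2AFX and H1FX, 2 variant genes without introns, lay among the replication-dependent genes in both RIPs. As background, H2AFX mRNA can end either in a stem-loop or in a poly(A) tail. H1F0, which has no introns either, was above both inputs (1.12 with Flag-TDP43 and 0.68 with Flag-SRSF3). H2AFV, the other H2A.Z gene, had 0.76 with Flag-TDP43 and -1.61 with Flag-SRSF3, and H3F3B had 0.83 and -0.76. H3F3A had -0.05 with Flag-TDP43 and 0.70 with Flag-SRSF3, H2AFJ had 0.68 and 0.34, and H2AFY had 0.16 and -0.03.

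**Figure D4:**
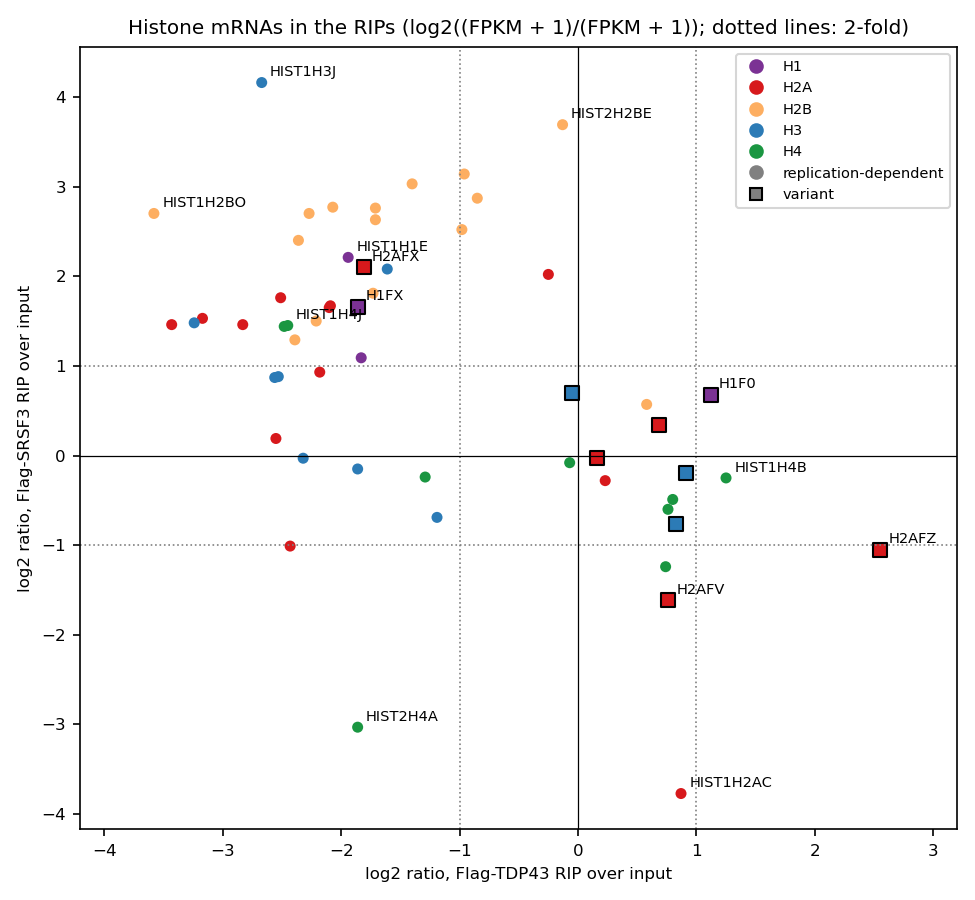
Log2 ratio of RIP over input for Flag-TDP43 (x axis) and Flag-SRSF3 (y axis), for 46 replication-dependent (circles) and 10 variant (squares) histone genes that passed the filter in both RIPs, with dotted lines at 2-fold and 1 library a group. Most circles lie at upper left, H2AFX and H1FX lie among them, H2AFZ is at far right (2.55, -1.05), and the green H4 points fall on both sides of 0.

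Some values depended on which deposited RIP table was read. HIST1H2AC had log2 ratios of 0.87 with Flag-TDP43 and -3.77 with Flag-SRSF3, and in the second table, which holds the same libraries, 3.23 and 0.01. HIST2H3C had -2.53 with Flag-TDP43, against 1.64 in the second table. The H3 gene HIST2H3PS2, whose name marks a pseudogene but which RefSeq lists as protein coding, was at 35.8 FPKM in the Flag-TDP43 RIP and 0.0477 FPKM in its input, and at 0.0232 FPKM in the Flag-SRSF3 RIP and 127 FPKM in its input. In the second table its log2 ratios were -1.61 and -2.49. The class counts were close in the second table: 3 replication-dependent genes higher and 31 lower with Flag-TDP43, and 29 higher and 3 lower with Flag-SRSF3. HIST1H2BC, at 1.5 with Flag-SRSF3, had 0.64 there, HIST1H3J had 4.16 and 1.93, and H2AFY had -0.03 and 1.38.

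The knockdown calls and the RIP ratios of single replication-dependent genes were set side by side, since the RIPs used other libraries. Of the 12 genes called higher in sh_TDP43, 0 were past 2-fold higher and 7 past 2-fold lower with Flag-TDP43, where 11 passed the filter. Of the 15 tested genes without a call, 0 were higher and 12 lower, where 14 passed. In the whole class 33 of 46 were lower with Flag-TDP43, and of all genes 11.4% were higher and 13.5% lower. Of the 14 genes called higher in sh_SRSF3, 8 were past 2-fold higher and 1 lower with Flag-SRSF3. Of the 12 without a call, 10 were higher and 0 lower. In the whole class 31 of 50 were higher with Flag-SRSF3, and of all genes 8.59% were higher and 7.24% lower. A link between knockdown calls and RIP ratios was not tested. HIST2H2BE, the gene called lower in sh_SRSF3, had one of the highest ratios with Flag-SRSF3 (3.69). HIST1H4C, with the largest rise in sh_SRSF3, was below input with that protein (-0.60). Among variants, H2AFZ had the highest ratio with Flag-TDP43 (2.55) and a log2 change of -0.27 ± 0.10 in sh_TDP43, and H1F0, with the largest falls in both knockdowns, was above input in both RIPs.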

How the data were processed

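RNA-seq of sh_TDP43, sh_SRSF3 and sh_control (2 libraries each) and the RIP and input of Flag-TDP43 and Flag-SRSF3 (1 library each) were used, grouped by sample title. The members and all gene lists were chosen with earlier results of these data known. Per the file headers, the deposited counts were made by the authors with featureCounts (v1.4.6-p5) without a strand option, so a gene and its antisense or overlapping partner cannot be told apart. Per the submitters' processing notes, the tools include HISAT2 2.0.5, STAR 2.5.2a, Cufflinks and StringTie 1.3.0, and GRCh37 is the build. Per-sample count columns that match no label numbered 2 and were not used; the combined knockdown was not analysed here. Per the file headers, the second of the deposited RIP tables holds FPKM; the main one names no unit and was taken as FPKM, since its values are proportional to the second table's for many genes. Their program is not stated, and their coordinates are not used here. The log2 fold changes by the authors in both tables are not printed. Counts were fitted with edgeR 4.0.16 (R 4.3.3): filterByExpr, TMM scaling, glmQLFit with 1 coefficient per group over 6 libraries (3 residual degrees of freedom), glmQLFTest and Benjamini-Hochberg adjustment over 15026 genes, called at 0.05. The planned fits that needed the combined knockdown could not be made. CPM are TMM-scaled, and RPKM divide these by exon length. RIP ratios are log2((RIP FPKM + 1)/(input FPKM + 1)) for genes with at least 1 FPKM in either library, on a scale that understates the change of low genes. The fit was tested on simulated counts. Within each group, the 2 libraries differed beyond counting noise (chi-square per gene 11.3 to 23.1). Members named in the text are 19 fixed genes plus, per comparison, the 8 of each class with the largest change among those called (mean CPM of at least 1) or with the largest RIP ratio; of the lists, up to 4 called genes with the largest changes; other members were named after their values were seen. Alternatives were DESeq2 1.42.0, RLE, upper-quartile and total-read scaling, no filter, a replicate block, each library left out, only 2 groups in the fit, other pseudocounts, filters and folds, centring, and, chosen after seeing the data, the second RIP table and the class without RefSeq pseudogenes.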

Additional observations from a re-analysis of the deposited data

Results flagged for a closer look

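These results stood out because a class or gene lay past 2-fold below its input in one RIP and past 2-fold above it in the other. The difference between the RIPs was not tested, since each group has 1 library. The median log2 ratio of the replication-dependent histone genes that passed the filter was -1.90 with Flag-TDP43 and 1.46 with Flag-SRSF3. Of the genes named by a fixed list, HIST1H1C had -1.83 and 1.09, HIST1H2BC had -2.21 and 1.5, HIST1H2BD had -1.71 and 2.76, and HIST1H2BK had -2.07 and 2.77, with Flag-TDP43 and Flag-SRSF3 in that order. Among variant genes, H1FX had -1.86 and 1.66 and H2AFX had -1.81 and 2.10 in the same order. H2AFZ lay the other way round, with 2.55 with Flag-TDP43 and -1.05 with Flag-SRSF3. In the second deposited table, the ratios with Flag-SRSF3 were 0.64 for HIST1H2BC and -0.52 for H2AFZ, both within 2-fold.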

How the results depend on the processing

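With RLE scaling, DESeq2's Wald test and no filter on low counts, the class counts of the knockdowns stayed within 1.5 times the main counts and the medians kept their direction. Without the filter, however, the replication-dependent median was 0.18 in sh_TDP43 over 46 genes, against 0.55 over 27. With each library left out in turn, replication-dependent genes called higher in sh_TDP43 numbered 8 to 12 and their median lay between -0.19 and 0.48, below 0 without sh_TDP43 replicate 1 or sh_control replicate 2; the cause was not tested. With only the 2 groups compared in the fit it was 1.03, where 21 genes passed. In sh_SRSF3 the count of variant genes called lower lay between 4 and 7 and their median between -0.40 and -0.11; it was 8 genes (median -0.38) with upper-quartile scaling and 7 with total reads. In sh_SRSF3 against sh_TDP43, the replication-dependent median lay between 0.64 and 1.26 with a library left out, against 0.58, and variant genes called higher between 1 and 3. With upper-quartile scaling 1 variant was called higher (median -0.18) and with total reads 1 (-0.13), where the medians of all genes were -0.29 and -0.23; there H2AFV turned to -0.13 and -0.08, H3F3B to -0.24 and -0.18 and HIST1H4I to -0.08 and -0.03, and with upper-quartile scaling alone H2AFZ to -0.01 and HIST1H2BK to -0.05. The change of single genes turned with libraries left out: in sh_TDP43 HIST1H3H lay between -0.62 and 0.15, HIST1H4C between -1.04 and 1.03 and HIST3H2A between -5.00 and 2.33; in sh_SRSF3 H2AFZ lay between -0.13 and 0.06.
In sh_SRSF3 against sh_TDP43 the ranges across 0 were -0.06 to 0.31 for H2AFV, -0.01 to 0.03 for H3F3B, -0.04 to 0.48 for HIST1H2BK, -0.60 to 0.14 for HIST1H2BN, -0.43 to 0.27 for HIST1H4H, -0.03 to 0.40 for HIST1H4I and -0.47 to 0.19 for HIST4H4. HIST3H2A ran from -0.07 to 7.26 there, and like its -5.00 this is a fitted value against a library with 0 reads, not a bound.
Same-numbered libraries correlated at 0.0879, 0.12 and 0.0755 in their deviations, all positive but low. In every group, replicate 1 had the higher summed variant level and replicate 2 the higher summed replication-dependent level. The variant sums were 2055 and 1901 CPM in sh_TDP43, 1989 and 1836 in sh_SRSF3 and 2970 and 2553 in sh_control. The replication-dependent sums were 111 and 148, 141 and 146, and 55.3 and 64.0 CPM in the same order. Whether same-numbered libraries share more than a number was not tested. A replicate block gave 12 replication-dependent genes higher in sh_TDP43, 17 in sh_SRSF3 and 11 in sh_SRSF3 against sh_TDP43, and 7, 6 and 4 variant genes lower.
In the RIPs, without a filter on FPKM the variant median was 0.10 with Flag-TDP43 and -0.04 with Flag-SRSF3, and the replication-dependent median 1.09 with Flag-SRSF3. At 1.5-fold, 5 replication-dependent and 6 variant genes were higher with Flag-TDP43 and 4 variant genes with Flag-SRSF3. The second table, chosen after seeing the data, gave 3 replication-dependent genes higher with Flag-TDP43, and with Flag-SRSF3 1 variant gene lower and a variant median of 0.73. There HIST2H2BF turned to 0.11 and HIST2H3C to 1.64 with Flag-TDP43, and HIST1H2AC to 0.01, HIST1H2AM to 0.62 and HIST2H2BA to -1.13 with Flag-SRSF3; the cause was not tested. Without RefSeq pseudogenes, also chosen after seeing the data, 33 replication-dependent genes were lower with Flag-TDP43 and 28 higher with Flag-SRSF3. The 39 replication-dependent genes left out of the knockdown tests had at most 18 reads in any library, which limits what their counts can show. Fits with the combined knockdown were not run.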
